A study of Mus musculus with 11 samples.

Results

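Livers of mice given Sorafenib for 83 d, called long-term here, were set against livers of mice given the same drug at the same dose for 14 d. The arrays were chosen by their source labels, not by their values, which gave 4 long-term and 4 14 d arrays, 8 of the 11 in the series. All mice were of the iAST line on a C57BL6n background, and all samples were labelled tumour liver. Long-term livers (n = 4) had received Sorafenib by mouth at 60 mg/kg for 83 d. Livers of the 14 d group (n = 4) had received Sorafenib by mouth at 60 mg/kg for 14 d. The other 3 arrays came from livers given vehicle solution for 14 d, and they are used for the shared estimate of the spread and as levels beside both treated groups. The same age label, 12 to 15 weeks, stands on every sample of all 3 groups, and it does not say whether it was the age at the start or at the end of dosing. Vehicle livers of 83 d were not analysed here, and the length of exposure therefore cannot be told apart from the time that passed.

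Sorafenib is an oral inhibitor of several kinases. It blocks the RAF kinases of the ERK pathway inside tumour cells, and it blocks the receptors for VEGF and PDGF, through which endothelial cells and pericytes support tumour vessels. The drug is used against hepatocellular carcinoma, where tumours often progress under continued dosing. Comparing a short with a long exposure asks how the transcripts of the treated liver differ between these times. The labels do not state the transgene, the promoter or the inducing agent of the iAST line, nor whether each array came from a different mouse. The p-values therefore measure only how far these arrays spread, and that spread may be technical.

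Each array measured 26512 probes of a 1-colour bead array in total RNA from whole liver lysate, a mixture of tumour, surrounding liver, vessels and blood. In such a mixture fewer cells of a type and less RNA per cell cannot be told apart. Illumina identifiers stand in for gene names, since probes were not paired with genes here. The labelled tissue was for this reason not checked against liver markers, and transcripts are described by level, size and direction. Levels are log2(intensity + 16) after quantile normalization, where 1 unit is a doubling of intensity plus offset. The median probe lay at 6.84 and the upper quartile at 7.61, close to the lowest levels on the arrays. A probe near 6.84 therefore reads mostly background. The number of arrays limits the precision.

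All 4 long-term arrays and 14 d replicate 4 were hybridised on 1 chip together with the vehicle arrays, per the chip field of the sample descriptions. The other chip held 14 d replicates 1 to 3. Values that take the chip into account are therefore given below for the counts of calls, the named probes and the pairs of arrays. The size classes, separation, levels and spreads of the calls are given without such a value.

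Among the probes that passed the threshold, rises with long exposure were more numerous than falls and reached larger sizes. Of the 26512 probes, 378 passed the threshold between the times (limma, adjusted p under 0.05), which is 1.43% of all probes. Higher levels in the long-term livers made up 243 of them (0.917% of all probes) and lower levels 135 (0.509%). The rises had a median log2 difference of 0.68, with quartiles of 0.45 and 1.04, and the falls had a median of -0.61, with quartiles of -0.77 and -0.46. Over all probes the median difference was -0.0023. Without the adjustment the directions were about even: at an unadjusted limma p under 0.05 there were 1481 higher and 1507 lower probes. These counts were 1400 and 1598 with each array centred on its median, and 1563 and 1433 without quantile normalization. Which direction had more probes thus depended on the normalization. The count of calls was 194 without long-term replicate 1, 228 without long-term replicate 2 and 249 without 14 d replicate 3. It was 96 with the chip as a fixed term and 75 within the shared chip.

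The directions parted most at the large end. At a log2 difference of 2 or more there were 7 rises and 1 fall, and between 1 and 2 there were 56 rises and 12 falls. Between 0.5 and 1 there were 106 rises and 79 falls, and below 0.5 there were 74 rises and 43 falls. The 10 strongest rises whose groups did not overlap spanned 3.73 to 1.89 on the log2 scale. The 10 strongest such falls spanned -2.47 to -1.07, and after the first of them the next was already at -1.50.

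**Figure D1:**
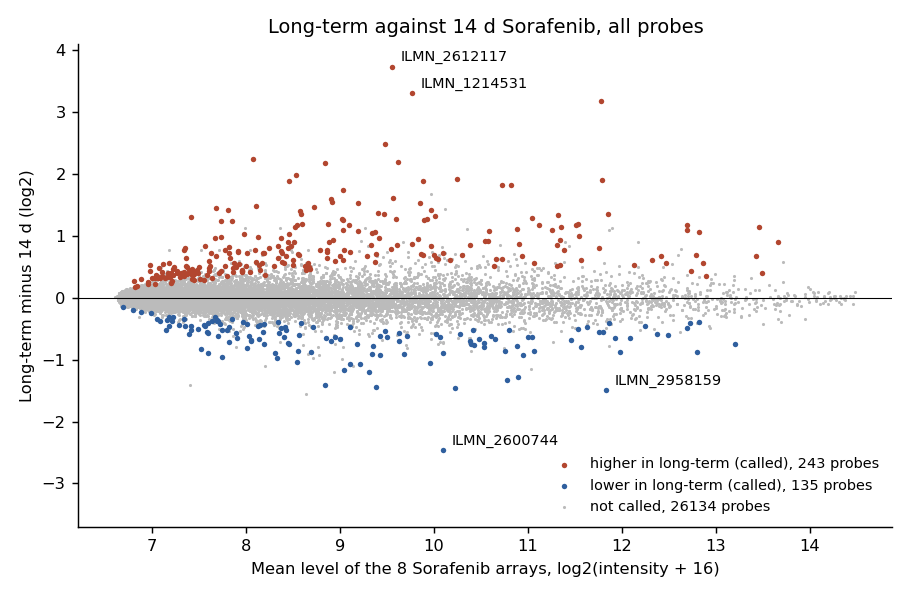
Each point is 1 probe, with its mean level in the 8 Sorafenib arrays on the x axis, as log2(intensity + 16), and the long-term minus 14 d difference in log2 units on the y axis. The 243 red points (higher) extend to 3.73, whereas all but 1 of the 135 blue points (lower) lie above -2.

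The largest rise was that of probe ILMN_2612117. Its levels were 10.90, 10.94, 11.64 and 12.20 in long-term replicates 1 to 4, against 7.98, 7.17, 7.78 and 7.82 in 14 d replicates 1 to 4. The groups were far apart, with 2.92 log2 units between the lowest long-term and the highest 14 d liver. In deposited intensity the long-term livers read 1874 to 4664 and the 14 d livers 128 to 237. Vehicle livers had levels of 7.22, 7.63 and 6.94, so no liver of either 14 d group exceeded 7.98, and no long-term liver was below 10.90. The long-term level was 3.73 ± 0.24 (SE) above the 14 d level on the log2 scale, which is 13.3-fold on the log2(intensity + 16) scale (limma adjusted p = 1.95e-08). After a normexp background correction the difference was 4.43, so the fold depends on how the background is treated.

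Probe ILMN_1214531 rose almost as far, but with another order among the livers. Its levels were 12.12, 11.78, 10.86 and 10.93 in long-term replicates 1 to 4, against 9.25, 7.87, 7.96 and 7.38 in 14 d replicates 1 to 4. Long-term replicates 1 and 2, the dimmest long-term livers for ILMN_2612117, were the brightest here. Among the 14 d livers replicate 1 stood highest, still 1.61 log2 units below the lowest long-term liver. Vehicle livers read 8.10, 7.10 and 7.25. The difference between the times was 3.30 ± 0.32 (SE), or 9.88-fold (limma adjusted p = 5.81e-06).

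The largest fall, that of ILMN_2600744, rested on livers that differed widely within each group. Its levels were 9.97, 9.28, 8.39 and 7.81 in long-term replicates 1 to 4, against 11.56, 10.68, 12.17 and 10.90 in 14 d replicates 1 to 4. The groups did not overlap, with 0.71 log2 units between them. Vehicle livers, at 9.37, 11.07 and 7.72, overlapped both treated groups, reaching below the lowest long-term liver and above 14 d replicates 2 and 4. The long-term level was lower by a log2 difference of -2.47 ± 0.51 (SE), with a limma adjusted p of 0.0152. This call ended with the chip as a term and within the shared chip, where the difference was -2.04 (limma adjusted p = 0.455 and 0.519), and without an intensity trend (0.137). It also ended without long-term replicate 4, 14 d replicate 1 or 14 d replicate 3, with limma adjusted p of 0.0618, 0.0505 and 0.0689.

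The next fall, that of ILMN_2958159, was smaller and far more even. Its levels were 11.17, 10.96, 11.21 and 10.98 in long-term replicates 1 to 4, against 12.55, 12.51, 12.51 and 12.74 in 14 d replicates 1 to 4. Within each group the livers agreed to an SD of 0.13 (long-term, n = 4) and 0.11 (14 d, n = 4), and 1.29 log2 units separated the groups. Vehicle livers lay between the treated groups, at 12.04, 11.66 and 12.09. The difference between the times was -1.50 ± 0.11 (SE), a 2.82-fold lower level in the long-term livers (limma adjusted p = 2.47e-07).

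**Figure D2:**
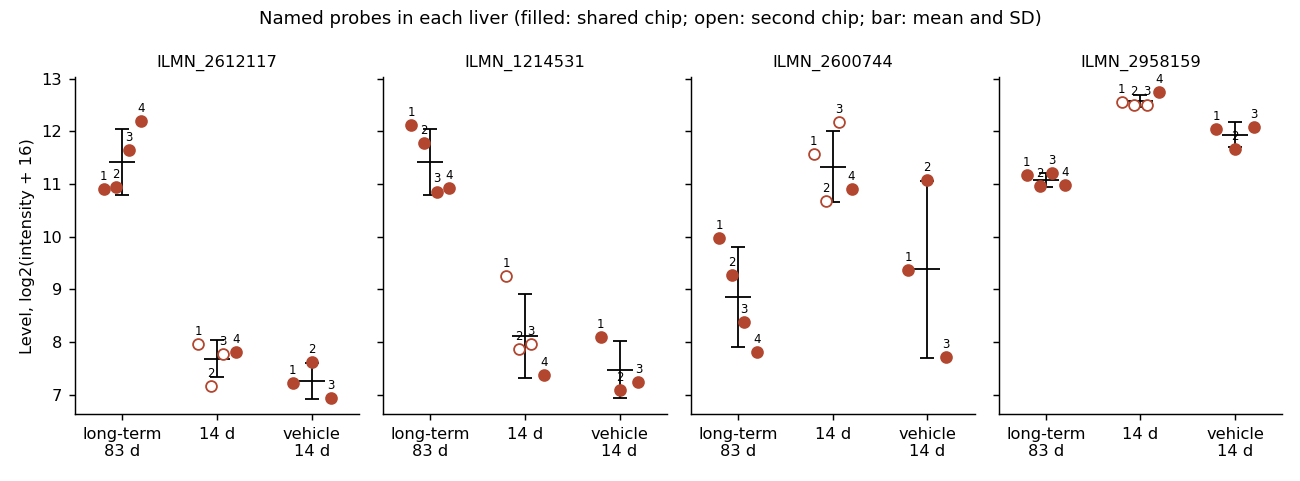
Levels of the 4 named probes, as log2(intensity + 16), in every long-term, 14 d and vehicle liver, with the replicate number above each point, filled points for the shared chip, open points for the second chip, and bars for the mean and SD. The long-term livers lie apart from all 14 d livers in each panel, and for ILMN_2600744 the vehicle livers spread from 7.72 to 11.07.

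The same probes set against vehicle gave the following values, in comparisons that share the vehicle arrays with each other. ILMN_2612117 differed from vehicle by 4.15 ± 0.25 (SE) in long-term livers (limma adjusted p = 9.26e-09) and by 0.42 ± 0.25 in 14 d livers (limma adjusted p = 0.657). ILMN_1214531 differed by 3.94 ± 0.35 in long-term livers (limma adjusted p = 1.73e-06) and by 0.64 ± 0.35 in 14 d livers (limma adjusted p = 0.598). For the falling probe ILMN_2958159 the difference from vehicle was -0.85 ± 0.12 in long-term livers (limma adjusted p = 3.73e-04) and 0.65 ± 0.12 in 14 d livers (limma adjusted p = 0.00859). Its level was thus below vehicle in long-term livers and above vehicle in 14 d livers. With the chip as a term, the 14 d difference from vehicle rests on 14 d replicate 4 alone, because the second chip held only 14 d arrays. For ILMN_2958159 this difference was 0.81, and the call of the 14 d livers ended. In the same liver the difference was 0.55 for ILMN_2612117, 1.52 for ILMN_2600744 and -0.10 for ILMN_1214531. ILMN_2600744 passed against vehicle at neither time, with -0.52 ± 0.55 in long-term livers (limma adjusted p = 0.797) and 1.94 ± 0.55 in 14 d livers (limma adjusted p = 0.117).

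Complete separation of the livers was the rule among the calls. In 343 of the 378 probes no long-term liver overlapped a 14 d liver, against 6.69% of all probes, 3.21% with higher and 3.47% with lower long-term levels. The calls were selected from this same contrast. The median space between the nearest livers of the 2 groups was 0.19 log2 units among the rises and 0.20 among the falls. In 9 rises and 1 fall, ILMN_2958159, that space exceeded 1 log2 unit. These 9 rises had log2 differences of 1.36 to 3.73, and in all 9 every vehicle liver too lay below the lowest long-term liver. For only 3 of the 9 was the mean 14 d level under the upper quartile of all probes, 7.61. The other 6 were above it at 14 d, but that quartile lies close to the lowest levels on the arrays. Among these 6, ILMN_2612117 had a mean 14 d level of 7.69.

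Most called transcripts lay at or above the upper quartile of all probes at both times. Among the rises, 154 of 243 had both group means at or above 7.61, and among the falls 94 of 135 did. The median level of the rising probes was 8.89 in long-term livers, 7.99 in 14 d livers and 8.005 in vehicle livers. For the falling probes the medians were 8.26 in long-term livers, 9.07 in 14 d livers and 8.77 in vehicle livers. Rising probes thus had similar medians in 14 d and vehicle livers, and falling probes had their highest median in the 14 d livers. The calls were selected against the 14 d levels, which favours a high 14 d median among the falls. By probe, the vehicle mean lay between the treated means in 94 rises and 94 falls. It was below the 14 d mean in 129 rises and above the long-term mean in 20. Among the falls it was above the 14 d mean in 34 and below the long-term mean in 7. Long-term livers varied most among themselves in the rising probes, with a median SD over arrays of 0.20 (n = 4), against 0.15 in 14 d livers (n = 4) and 0.14 in vehicle livers (n = 3). For the falling probes the median SDs were 0.15 in long-term livers, 0.17 in 14 d livers and 0.16 in vehicle livers. Over all probes the median SDs were nearly equal, at 0.069 in long-term, 0.068 in 14 d and 0.064 in vehicle livers. In each direction, the treated group with the higher median level had the larger SD. These differences in spread were not tested.

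**Figure D3:**
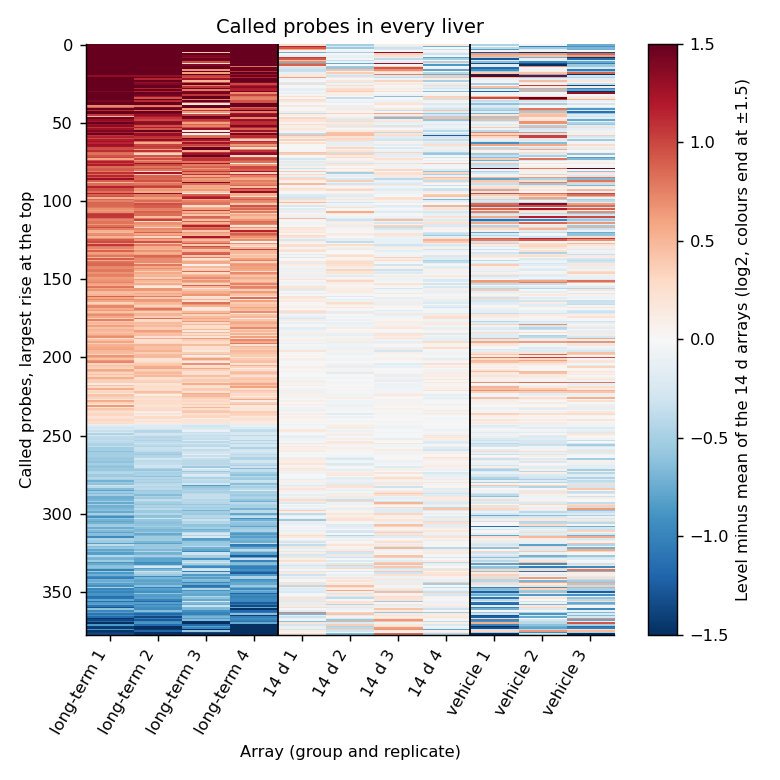
Rows are the 378 called probes, sorted by the long-term minus 14 d difference, columns are the 11 arrays, and colours give each level minus the mean of the 14 d arrays in log2 units. The 243 rises (red in the long-term columns) and 135 falls (blue) are seen in all 4 long-term livers, with paler colours in replicate 3, whereas the vehicle columns are mixed.

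The share of probes called grew with their level. In the brightest of 8 equal bins of probes, with mean levels of 8.88 to 14.49, 4.62% were called, 90 higher and 63 lower. The next bin, from 7.61 to 8.88, had 3.86% called, 81 higher and 47 lower, and the bin from 7.02 to 7.61 had 2.44%, 60 higher and 21 lower. Below 7.02 only 16 probes were called in all 5 bins together. Rises thus outnumbered falls more in the dimmest of the 3 upper bins than in the brightest, a difference that was not tested. The background correction gave 4.43 in place of 3.73 for ILMN_2612117, whose mean 14 d level was 7.69. For ILMN_2958159, with a mean 14 d level of 12.58, it gave -1.53 in place of -1.50. Whether background bears on the balance of rises and falls by level was not tested.

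**Figure D4:**
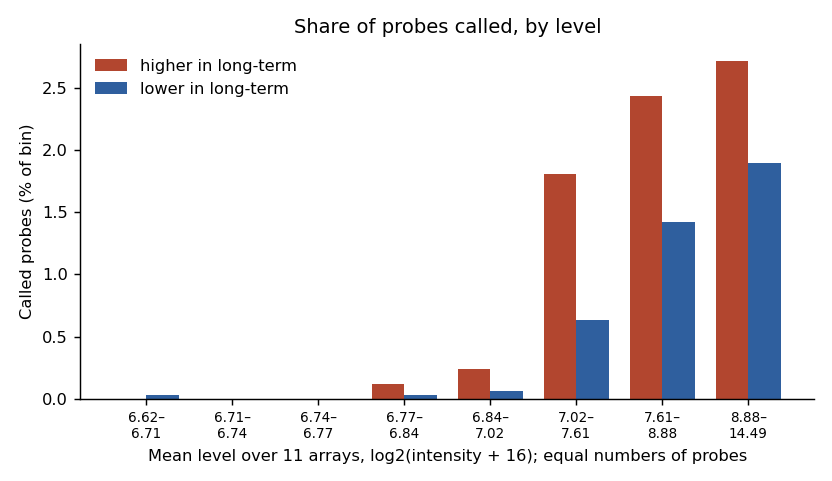
Percent of probes called higher (red) and lower (blue) in long-term than in 14 d livers, in 8 bins of 3314 probes ordered by mean level over the 11 arrays, as log2(intensity + 16). Calls were concentrated in the 3 brightest bins, where 2.72% of the brightest probes were higher and 1.90% lower.

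Each liver was also read against calls in which it had no part. The comparison was fitted without 1 Sorafenib array at a time, and the array left out was then set against the mean of the other group. The fit had used that mean to make the calls, which favours agreement in direction. Without long-term replicate 1, 194 probes passed, and that liver differed from the 14 d mean in the called direction in all 194. Without long-term replicate 2, 228 passed, and the liver went the called way in all 228. For long-term replicate 4 this held in 282 of 291 probes. Long-term replicate 3 was the least marked: without it 473 probes passed, and it went the called way in 426 of them, 90.1%. Over all probes, the share with the same sign as the fit was 62.5% to 65.8% for the 8 arrays. Most of those probes were not called, so that share does not give the agreement to be had among calls.

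The size of the change differed between the long-term livers. In long-term replicate 3 the median difference from the 14 d mean was 0.37 for the rises called without it, against 0.66 in the livers that made the calls, and -0.36 for the falls, against -0.65. In long-term replicate 1 the rises had a median of 0.88, against 0.77 in the other livers, and the falls -0.74, against -0.77. Long-term replicates 2 and 4 lay between these livers for the rises, at 0.69 and 0.51, each over the probes called without that liver. Replicate 3 was also the long-term array farthest from the rest of its group over all probes. The SD of its log2 difference from the other 3 averaged 0.185, against 0.153 to 0.169 for the others. It went beyond every 14 d liver in 71.9% of the probes called without it, against 86.3% to 97.9% for the other long-term livers. Over all probes, replicate 3 lay above every 14 d liver in 20.7% and below every one in 21.6%.

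**Figure D5:**
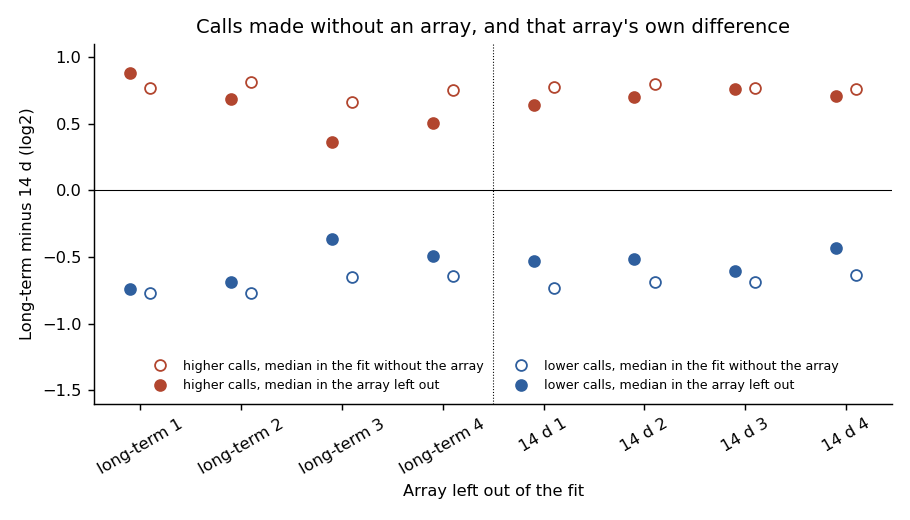
For each Sorafenib array left out of the fit, filled points give its own median long-term minus 14 d difference (log2) over the probes called without it, and open points the median in the fit, in red for higher and blue for lower calls. Filled points of long-term replicate 3 lie nearest to 0, at 0.37 and -0.36.

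Left out in the same way, 14 d replicates 1 to 3 went the called way in 266 of 276, 249 of 253 and 247 of 249 probes. For 14 d replicate 4, on the shared chip, most called probes also kept their direction. In the fit without 14 d replicate 4, all remaining 14 d arrays were on the second chip, and 310 probes passed, 194 higher and 116 lower. This liver had no part in those calls and shared the chip of the long-term arrays. Set against it, the long-term mean was higher in 182 of the 194 and lower in 110 of the 116. The long-term arrays had a part in those calls, which favours this agreement. The median difference was 0.71 for the rises, against 0.76 in the fit, and -0.43 for the falls, against -0.63. In 263 of the 310 probes the liver lay outside the range of all 4 long-term livers in the called direction. Over all probes it lay below every long-term liver in 21.4% and above every one in 23.5%.

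Fewer probes, and few falls among them, passed in tests that rest on this 1 liver. The 96 calls with a fixed chip term were 83 rises and 13 falls, of which 73 and 6 were among the 378. The 75 within the shared chip alone were 67 rises and 8 falls, and the single 14 d liver was assumed to vary like the other groups. The median size of the 378 was 0.64 with the chip term and 0.64 without it. Since 14 d replicate 4 had a part in calling the 378, this likeness does not test the chip. The median SE over all probes was 0.08 within the shared chip, against 0.05 with the chip as a random block. ILMN_2612117, ILMN_1214531 and ILMN_2958159 passed within the shared chip with differences of 3.60, 4.04 and -1.66 and limma adjusted p of 4.68e-04, 4.68e-04 and 9.56e-04. Pairs of arrays from the 2 times differed with a median SD of 0.228 on the shared chip and 0.211 across chips. Pairs of long-term livers had 0.167, pairs of 14 d livers on the second chip 0.159 and pairs of 14 d livers on both chips 0.182. Every pair of the 2 times on the shared chip, and every 14 d pair on both chips, included 14 d replicate 4. In these medians the chip and this liver cannot be told apart.

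Rises made up most of the calls that passed in each set of alternatives. Of the 378 probes, 163 passed in all 8 fits that left out a Sorafenib array, 122 higher and 41 lower. Under the 11 alternatives of processing and model, 165 passed, 119 higher and 46 lower. Under all 21 alternatives, the chip settings included, 47 passed, 44 higher and 3 lower, with median differences of 1.26 and -0.87. ILMN_2612117, ILMN_1214531 and ILMN_2958159 were among these 47.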

How the data were processed

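Total RNA of whole liver was biotin-labelled and hybridised to 1-colour arrays, per the labels. The deposited values were linear intensities for 26512 probes, as judged from the values. The authors' software, background correction and normalization are not given in the sources used here. Array medians were 98.7 to 99.9. Sorted arrays deviated from their mean by a median of 0.419% and by 6.80% at the most, so the distributions were already much alike in the deposited values. Precision is limited by the number of arrays.

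An offset of 16 was added, log2 was taken and arrays were quantile normalized. The comparison used limma 3.58.1 (R 4.3.3) on all 11 arrays in 3 groups (lmFit, eBayes with an intensity trend, two-sided, Benjamini-Hochberg over all probes, threshold 0.05), after the fit was tested on simulated data. Alternatives changed the normalization, offset, background correction, probes, arrays, variance model, chip and replicate block. Named probes are the 2 largest rises and 2 largest falls among calls whose groups did not overlap. Gene lists and cell type markers were planned and not analysed here, because the probes could not be paired with genes. Arrays, lists and rules were chosen with earlier results of these data known. Figures used matplotlib 3.10.9 in Python 3.11.15.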

Additional observations from a re-analysis of the deposited data

Results flagged for a closer look

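The named probes are those for which the long-term and 14 d effects against vehicle differed most in each direction without overlap between the treated livers. The vehicle level cancels in that difference, so the values are those by which the probes were chosen and add no further test: 3.73 on the log2 scale for ILMN_2612117, 3.30 for ILMN_1214531, -2.47 for ILMN_2600744 and -1.50 for ILMN_2958159. The call of ILMN_2600744 ended with the chip as a term (limma adjusted p = 0.455) and within the shared chip (0.519). Dixon's test, which in 4 values finds only very wide gaps, passed in none of 10 sets of 4 arrays (the named probes and the array medians of both treated groups). The highest ratio, 0.802, was that of ILMN_2958159 in the 14 d livers, where replicate 4, the array on the shared chip, stood apart at 12.74, against 12.51 to 12.55 in the others.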

How the results depend on the processing

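All 378 probes called kept their sign in every alternative that tested them. The alternatives reused most or all of the arrays that had called these probes, so this outcome was favoured in advance. The number of calls moved by over 1.5 times with the chip. As a fixed term it gave 96 calls (83 higher, 13 lower) and the shared chip alone gave 75 (67 higher, 8 lower), which raised the share of higher calls to 86.5% and 89.3%, against 64.3%. At an unadjusted p under 0.05 these settings had 2318 and 2219 probes, against 2988. As a random block, with a correlation of 0.0170, the chip gave 341 calls. Without the intensity trend 257 probes passed, 190 of them among the 378, and the higher calls numbered 159. Leaving out 1 array gave 194 to 473 calls, 141 to 315 higher and 53 to 158 lower. The total was lowest without long-term replicate 1 (194, with 141 higher and 53 lower) and was also over 1.5 times lower without long-term replicate 2 (228, with 161 higher and 67 lower) and 14 d replicate 3 (249, with 169 higher and 80 lower). Falls alone numbered 84 without long-term replicate 4, 87 without 14 d replicate 1 and 84 without 14 d replicate 2. The cause was not tested. Other settings gave 359 to 446 calls. Of the named probes, ILMN_2600744 lost its call in 6 of 21 alternatives, with adjusted p up to 0.519, and the others lost it in none. With the replicate block 359 probes passed, 309 of them among the 378. Deviations of same-numbered long-term and 14 d arrays correlated at -0.10 to 0.02, and those of other pairs at -0.19 to 0.12. No pairing by number was seen, but so few correlations cannot exclude one. Of the 4 long-term arrays, 1 correlated best with its own number. A fit with 1 probe per gene was not run because probes could not be paired with genes. Probes near the background limit what could be detected: only 6 of the 378 calls were outside the 13256 brighter probes.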
